A study of Mus musculus with 12 samples.

Results

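The 8 genes described here encode the 3 chains of fibrinogen (Fga, Fgb and Fgg), 4 secreted proteins of the acute phase response (Saa3, Hp, Lrg1 and Serpina3n) and the interleukin-1 receptor antagonist (Il1rn). Members were all probe sets that the platform annotation assigned to exactly 1 gene, that gene being one of the 8. This gave 10 probe sets, 3 of them for Il1rn and 1 for each other gene, out of 34945 probe sets of 18193 genes. Of the 8 genes, 7 with 9 probe sets passed the filter on low signals and were tested among 14322 genes. Fgb did not pass it and is given as signals.

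Whole kidneys came from male mice, 8 weeks of age at purchase, all of which had lost the right kidney in the operation. TLR4 null mice were of the C57BL/10ScNJ strain, which lacks Toll-like receptor 4, an innate immune receptor for bacterial lipopolysaccharide, and wild-type (WT) mice were C57BL/10. In each strain the left pedicle was clamped for 23 min and the kidney collected after 4 h of reperfusion (ischemic), or a clip was laid under the pedicle (sham), with 3 arrays in each of the 4 groups. Arrays within a group are described as biological replicates in the labels. The genotype is that of a whole substrain, so loss of Tlr4 and any other difference between the strains cannot be told apart. All comparisons are of whole tissue, in which fewer cells of a type and less RNA per cell cannot be told apart.

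The 12 arrays had median signals of 61.2 to 77.4. The most different Tlr4 probe set read 0.901 to 3.38 on the 6 TLR4 null arrays and 65.6 to 120.4 on the 6 WT arrays, which matches the labels, although it was picked by that difference. Kidney markers were present on all arrays, with all 8 markers of the proximal tubule and all 6 of the distal segments past the filter. Markers of fat varied widely between arrays of the same group, and their values are given beside the members they moved with.

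Acute phase proteins are plasma proteins whose synthesis changes within hours of injury or infection. The liver is their main source, where interleukin-6 acts through the transcription factor STAT3, and interleukin-1 through NF-kB and C/EBP factors. Fibrinogen is built from the 3 chains in equal number and is cleaved by thrombin to fibrin, and tubular epithelium of the kidney also transcribes its genes. Several members, haptoglobin and serum amyloid A3 among them, are in addition products of adipose tissue in the mouse. The genes of the 3 fibrinogen chains are neighbours on chromosome 3 (GRCm38.p6), with Fgg at 83007724 to 83015056, Fga at 83026153 to 83033627 and Fgb at 83042246 to 83049863. Saa3 lies on chromosome 7 at 46711998 to 46719615, Hp on chromosome 8 at 109575128 to 109579172 and Lrg1 on chromosome 17 at 56119678 to 56121946. Serpina3n lies on chromosome 12 at 104406646 to 104414334, and Il1rn on chromosome 2 at 24336860 to 24351491.

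Promoter windows are printed for the 3 fibrinogen chains, because most calls described below fall on these neighbours, and for Saa3. Saa3 is an acute phase gene with a large difference between the genotypes in ischemic kidneys that was not called. Larger estimates there were those of Serpina3n, whose window is not printed, and Hp, for which no window was at hand. Each window runs from 250 bases before to 50 bases after a start site and was taken from RefSeq on GRCm38.p6. For the 3 fibrinogen chains this site is the 5′ end of the gene span given above, whereas for Saa3, and by a short distance for Serpina3n, it lies inside the span. It is written 5′ to 3′ on the strand of the gene. Capitals mark matches, on either strand, to the motifs searched for the factors named above and for the liver and kidney factor HNF1.
Fga (chr3:83025903-83026202, plus strand): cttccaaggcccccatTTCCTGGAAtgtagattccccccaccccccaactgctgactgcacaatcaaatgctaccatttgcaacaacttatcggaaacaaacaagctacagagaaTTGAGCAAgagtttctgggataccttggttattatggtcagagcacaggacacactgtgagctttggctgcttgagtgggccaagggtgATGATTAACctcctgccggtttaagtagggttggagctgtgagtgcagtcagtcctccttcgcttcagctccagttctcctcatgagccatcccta
Fgb (chr3:83049814-83050113, minus strand): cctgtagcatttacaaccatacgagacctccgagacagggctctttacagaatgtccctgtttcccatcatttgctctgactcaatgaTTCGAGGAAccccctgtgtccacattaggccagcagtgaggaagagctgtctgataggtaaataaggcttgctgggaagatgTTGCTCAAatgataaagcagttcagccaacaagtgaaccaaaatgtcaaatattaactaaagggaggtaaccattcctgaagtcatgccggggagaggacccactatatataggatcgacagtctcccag
Fgg (chr3:83007474-83007773, plus strand): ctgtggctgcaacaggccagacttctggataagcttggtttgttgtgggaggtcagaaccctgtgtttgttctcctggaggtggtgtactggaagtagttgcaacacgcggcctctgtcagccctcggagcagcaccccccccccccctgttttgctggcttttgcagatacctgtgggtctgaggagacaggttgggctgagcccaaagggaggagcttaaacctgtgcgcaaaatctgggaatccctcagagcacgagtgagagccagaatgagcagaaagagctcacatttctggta
Saa3 (chr7:46715627-46715926, minus strand): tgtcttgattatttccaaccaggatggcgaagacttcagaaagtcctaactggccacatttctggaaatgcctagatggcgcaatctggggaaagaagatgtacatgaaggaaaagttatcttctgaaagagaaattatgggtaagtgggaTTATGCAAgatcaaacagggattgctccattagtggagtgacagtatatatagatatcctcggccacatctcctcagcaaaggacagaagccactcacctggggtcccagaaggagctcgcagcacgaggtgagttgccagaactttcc

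The STAT motif TTCNNNGAA was found in the Fga and Fgb windows and in 8.30% of all 32851 windows of this length. The C/EBP motif TTGCNNAA was found in the Fga, Fgb and Saa3 windows and in 10.8% of all windows. One match to the HNF1 motif GTTAATNAT lay in the Fga window, and 0.801% of all windows held one. The NF-kB motif GGAANTTCC, which 0.928% of all windows held, was in none of the windows of the 7 members searched. Hp was not searched. None of the matches overlapped another. The windows of Fgg, Lrg1, Serpina3n and Il1rn held no match to any of the 4 motifs.

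Fga, the alpha chain of fibrinogen, was the only one of the 7 tested members called after ischemia in either genotype, and it was lower. A share of 11.7% of all genes was called lower in TLR4 null mice and 10.5% in WT mice, so 1 of 7 members is near this background. The Fga signal was 239, 427 and 212 in TLR4 null ischemic kidneys, against 823, 596 and 909 in TLR4 null sham kidneys. It was 457, 432 and 471 in WT ischemic kidneys, against 1095, 994 and 1056 in WT sham kidneys. In each genotype all 3 ischemic arrays lay below all 3 sham arrays, and the second TLR4 null ischemic kidney stood above the other two of its group.

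The difference of Fga between ischemic and sham kidneys was -1.40 ± 0.20 in TLR4 null mice (limma, adjusted p = 0.000139) and -1.18 ± 0.20 in WT mice (adjusted p = 0.000614). These are differences of log2(signal + 15) with their standard errors, a scale that understates the change of genes with low signals. On this scale the ischemic level was 0.378 of the sham level in TLR4 null mice and 0.441 of it in WT mice. The 2 responses differed by -0.22 ± 0.28 (limma, adjusted p = 0.933; 95% interval -0.82 to 0.38), so the data allow a larger fall in either genotype. Groups that did not overlap, with ischemia lower, were found for 20.1% of all genes in TLR4 null mice and 23.7% in WT mice, and Fga was the single member among them in both.

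**Figure D1:**
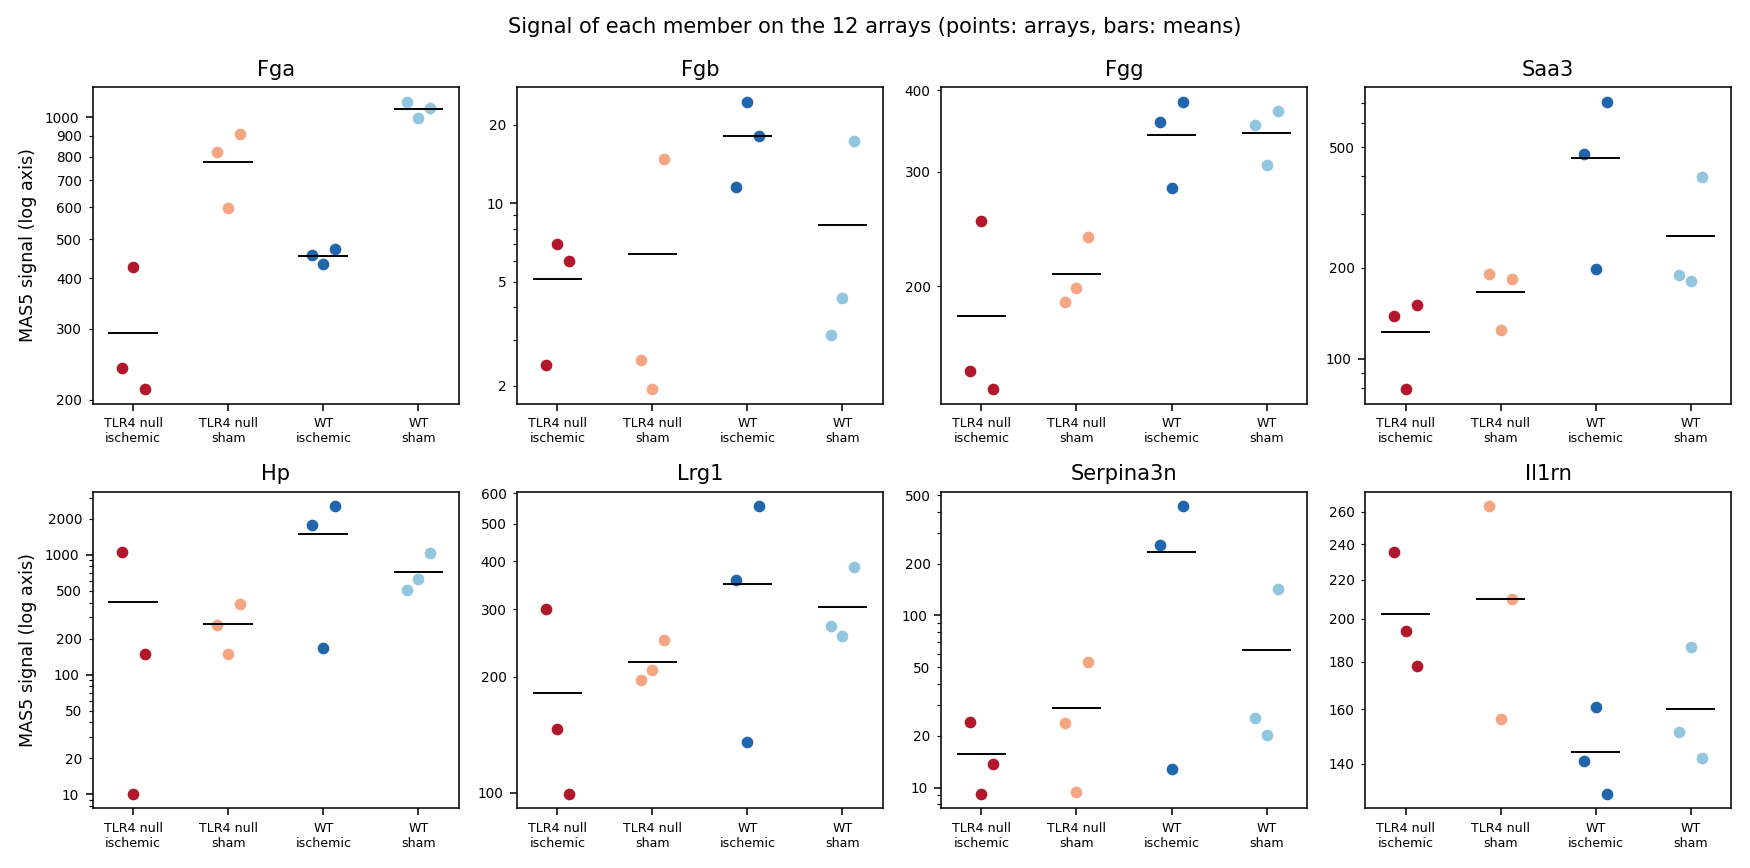
MAS5 signal of the 8 genes (log axis, own scale in each panel) in the 4 groups, with 1 point for each array and a bar at the mean of 3 arrays; Il1rn is shown by its probe set with the highest mean. Fga is lower on all ischemic arrays than on the sham arrays of the same genotype. Hp spreads over a wide range within both ischemic groups, and Serpina3n within the WT ischemic group.

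Fgg, the gamma chain, whose gene lies next to Fga, was not called after ischemia in either genotype. Its signals were 148, 252 and 139 in TLR4 null ischemic kidneys and 189.6, 199 and 238 in TLR4 null sham kidneys. In WT mice they were 358, 283 and 384 in ischemic kidneys and 353, 307 and 372 in sham kidneys. Ischemic and sham arrays overlapped in both genotypes. The difference was -0.24 ± 0.19 in TLR4 null mice (limma, adjusted p = 0.425) and -0.02 ± 0.19 in WT mice (adjusted p = 0.964; 95% interval -0.42 to 0.39). Without the second TLR4 null ischemic array, whose Fgg and Fga signals were both the highest of that group, the TLR4 null difference was -0.49 (limma, adjusted p = 0.0413).

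Between the genotypes, in contrast, Fgg separated fully. Every one of the 6 TLR4 null arrays, at 139 to 252, lay below every one of the 6 WT arrays, at 283 to 384. Among all genes 7.63% were lower in TLR4 null mice without overlap in ischemic kidneys and 8.63% in sham kidneys. The share of genes with all 6 arrays below all 6 was not counted. TLR4 null minus WT was -0.91 ± 0.19 in ischemic kidneys, which was called (limma, adjusted p = 0.0423), and -0.68 ± 0.19 in sham kidneys, which was not (adjusted p = 0.186). The call in ischemic kidneys lies close to the threshold. It held in 8 of 27 alternative settings and array omissions (limma, adjusted p from 0.00814 to 0.195). It was lost when any one of 11 of the 12 arrays was left out, and was kept without the second TLR4 null ischemic array (-1.16). Among all genes 0.517% were called lower in TLR4 null ischemic kidneys and 0.223% in TLR4 null sham kidneys.

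Fga showed the same order of genotypes. In ischemic kidneys its signals of 212 to 427 in TLR4 null mice lay below 432 to 471 in WT mice, and the difference was -0.67 ± 0.20 (limma, adjusted p = 0.170). In sham kidneys its signals of 596 to 909 in TLR4 null mice lay below 994 to 1095 in WT mice, with a difference of -0.45 ± 0.20 (limma, adjusted p = 0.497). Neither difference was called, but without the second TLR4 null ischemic array the one in ischemic kidneys was -0.96 (limma, adjusted p = 0.0136). The deviations of Fga and Fgg from their group means correlated at r = 0.84 over the 12 arrays, and at r = 0.49 without the second TLR4 null ischemic array.

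Fgb, the beta chain, was dim on all arrays. It read 2.4, 7.01 and 6.03 in TLR4 null ischemic kidneys and 2.51, 1.94 and 14.8 in TLR4 null sham kidneys. WT ischemic kidneys gave 11.6, 24.5 and 18.1, and WT sham kidneys 3.13, 4.33 and 17.3. No array exceeded its 40th percentile of signals, so these values lie in the range of probe sets that were not tested, and no order is read from them. In a fit of all genes without the filter its response to ischemia was -0.04 in TLR4 null mice and 0.54 ± 0.28 in WT mice (limma, adjusted p = 0.254). TLR4 null minus WT in that fit was -0.70 ± 0.28 in ischemic kidneys (limma, adjusted p = 0.398) and -0.12 ± 0.28 in sham kidneys (adjusted p = 0.965). Signals of different probe sets are not on a common scale, and these levels cannot be set against those of Fga and Fgg.

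Genes listed as hepatocyte markers were also measured. Their signals in these whole kidneys differed widely, from Cyp2e1 at 13086.5 to 19149.1 and Ttr at 3658 to 13563 to Cps1 at 10.6 to 85.9. Which cells gave these signals was not determined, so their mean is not a measure of liver tissue. Of 9 measured hepatocyte markers, Alb (albumin) was called higher after ischemia in both genotypes, by 1.28 in TLR4 null mice and 1.25 in WT mice. Apoc3 and Apob, which encode apolipoproteins, were called lower in WT mice and not in TLR4 null mice, with WT differences of -1.31 and -0.51, and the interaction was not called for either. Over the whole list, 7 of 9 estimates were negative in each genotype, with a median of -0.21 in TLR4 null and -0.48 in WT mice. The mean log2 level of the 9 was 8.81 to 9.03 in TLR4 null ischemic and 8.82 to 8.98 in TLR4 null sham kidneys (exact permutation test, two-sided p = 0.9). It was 8.74 to 8.95 in WT ischemic and 9.06 to 9.21 in WT sham kidneys, which did not overlap (exact permutation test, p = 0.1, the smallest this test can give). Deviations of Fga from its group means correlated with those of the mean level of these 9 genes at r = 0.68 over the 12 arrays. With those of the mean log2 level of 8 proximal tubule markers they correlated at r = -0.61. For Fgg these values were 0.34 and -0.59. The proximal tubule r was also negative for Lrg1 (-0.62), Serpina3n (-0.57), Saa3 (-0.42), Hp (-0.33) and Il1rn (-0.21). Of the 8 proximal tubule markers, 3 were called lower in each genotype, beside 11.7% of all genes in TLR4 null and 10.5% in WT mice. The part of these markers in the fall of Fga was not tested.

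**Figure D2:**
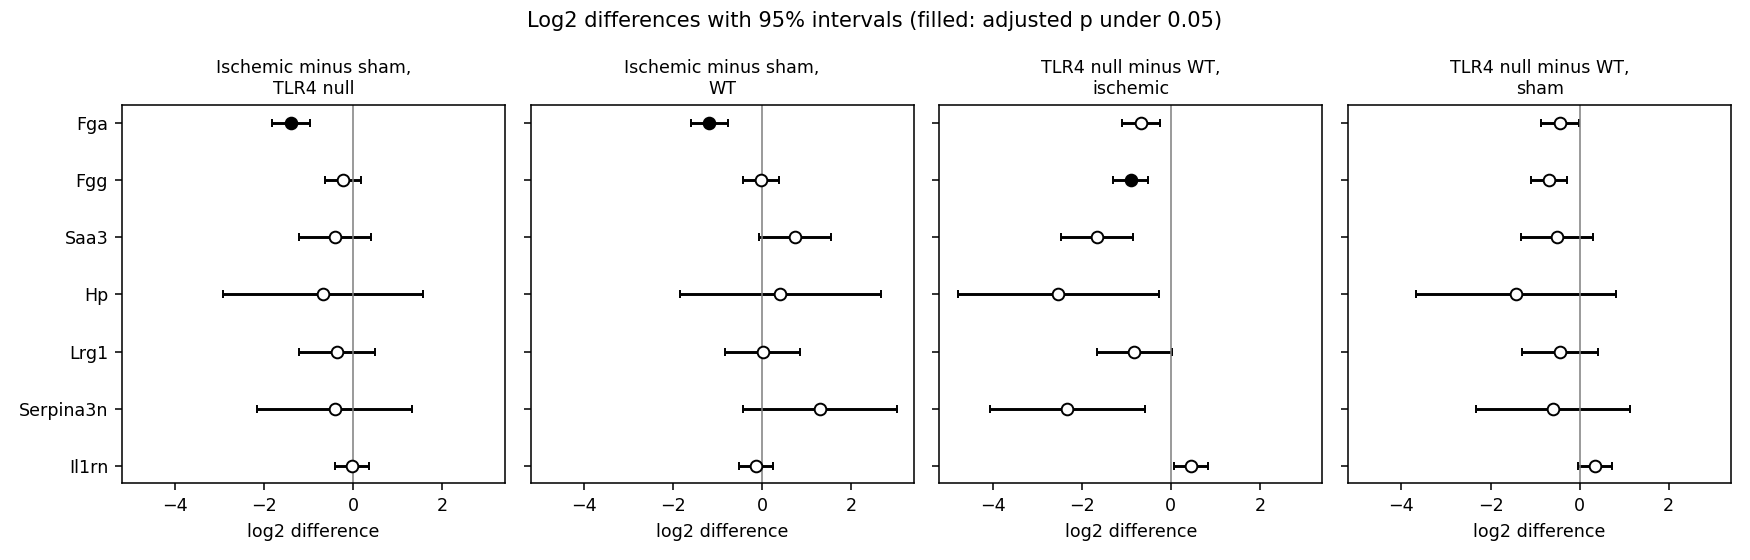
Differences of log2(signal + 15) with 95% intervals for the 7 tested genes, ischemic minus sham in each genotype and TLR4 null minus WT in each surgery. The intervals of Fga after ischemia lie wholly below 0 in both genotypes, and those of Hp and Serpina3n are several times wider than those of Fga, Fgg and Il1rn.

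The remaining secreted acute phase proteins were not called in any of the 5 comparisons. Hp encodes haptoglobin, which binds free haemoglobin. Its signals were 1059, 10.1 and 148 in TLR4 null ischemic kidneys and 259, 149 and 391 in TLR4 null sham kidneys. In WT mice they were 1768, 168 and 2550.0 in ischemic kidneys and 513, 626 and 1032 in sham kidneys. The ischemic arrays of each genotype lay on both sides of the sham arrays, with the second array lowest in both ischemic groups. Ischemic minus sham came to -0.68 ± 1.06 in TLR4 null mice (limma, adjusted p = 0.713) and 0.41 ± 1.06 in WT mice (adjusted p = 0.831).

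Saa3 encodes serum amyloid A3, an inflammatory lipoprotein constituent made mostly outside the liver in the mouse. Its signals were 139, 79.4 and 150.0 in TLR4 null ischemic kidneys and 191, 124 and 184 in TLR4 null sham kidneys. WT ischemic kidneys gave 476, 197 and 706, and WT sham kidneys 189, 180.2 and 397. The TLR4 null ischemic arrays lay below all WT ischemic arrays, while ischemic and sham arrays overlapped in both genotypes. The response was -0.41 ± 0.38 in TLR4 null mice (limma, adjusted p = 0.503) and 0.73 ± 0.38 in WT mice (adjusted p = 0.204). The difference of these responses was -1.15 ± 0.54, which had the smallest p of the members and was not called (limma, unadjusted 0.0494, adjusted p = 0.780). No gene was called for it (0.00% of 14322), and 6.37% of all genes had an unadjusted p under 0.05.

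Serpina3n encodes an inhibitor of serine proteases and is a mouse counterpart of human alpha-1-antichymotrypsin. It read 23.9, 9.18 and 13.8 in TLR4 null ischemic kidneys and 23.7, 9.42 and 53.9 in TLR4 null sham kidneys. WT ischemic kidneys gave 258, 12.8 and 431, and WT sham kidneys 25.5, 20.1 and 143. Only 4 arrays exceeded their 40th percentile, namely the first and the third WT ischemic array and the third array of each sham group, and ischemic and sham arrays overlapped in both genotypes. Ischemic minus sham was -0.42 ± 0.81 in TLR4 null mice (limma, adjusted p = 0.775) and 1.31 ± 0.81 in WT mice (adjusted p = 0.299).

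Lrg1 encodes leucine-rich alpha-2-glycoprotein 1, a secreted protein that modulates TGF-beta signalling in endothelium. Its signals were 301, 146 and 99.3 in TLR4 null ischemic kidneys and 196, 209 and 250.2 in TLR4 null sham kidneys. In WT mice they were 357, 135 and 555 in ischemic kidneys and 272, 255 and 387 in sham kidneys. Again the ischemic arrays spread to both sides of the sham arrays. Differences were -0.37 ± 0.40 in TLR4 null mice (limma, adjusted p = 0.584) and 0.01 ± 0.40 in WT mice (adjusted p = 0.990).

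Within groups, these 4 genes moved together and with markers of fat. Of 10 listed fat markers, 6 were measured (Adipoq, Cidec, Retn, Fabp4, Cidea and Lipe), Lep stayed below the filter at 2.00 to 55.7, and Plin1, Cfd and Adrb3 had no tested probe set. The mean log2 level of the 6 was 9.48, 7.06 and 8.03 in TLR4 null ischemic kidneys and 8.25, 7.85 and 8.75 in TLR4 null sham kidneys. It was 9.80, 7.83 and 9.90 in WT ischemic kidneys and 8.64, 9.07 and 9.40 in WT sham kidneys. The second array of both ischemic groups was the lowest of its group, as it was for Hp.

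Deviations from the group means correlated with those of the fat markers over the 12 arrays at r = 0.98 for Hp (Spearman 0.97), 0.83 for Lrg1 (0.80), 0.78 for Saa3 (0.68) and 0.78 for Serpina3n (0.78). For Il1rn, Fgg and Fga these r values were 0.11, -0.08 and -0.23. With the 2 arrays farthest from the median fat level left out, r was 0.99 for Hp, 0.93 for Lrg1, 0.83 for Serpina3n and 0.69 for Saa3, and it was 0.70 for Fgg and 0.48 for Fga. Hp had the same order of arrays as the fat markers, and as Adipoq (adiponectin, a hormone of adipocytes) alone, in 4 of 4 groups. Serpina3n had that order in 3 groups, Fga in 2, Saa3, Lrg1 and Fgg in 1 and Il1rn in none. Among the 4 genes, Saa3 and Serpina3n correlated at r = 0.93, Lrg1 and Serpina3n at 0.83, Hp and Lrg1 at 0.78, Saa3 and Hp at 0.77, and Saa3 and Lrg1 and also Hp and Serpina3n at 0.71. Fgg correlated with them at r = 0.42 (Serpina3n), 0.36 (Lrg1), 0.12 (Saa3) and -0.21 (Hp). Without the second TLR4 null ischemic array these values for Fgg were 0.88, 0.78, 0.77 and 0.77, so its weak relation to the 4 genes rests on that array. All these values come from the same arrays and describe them.

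**Figure D3:**
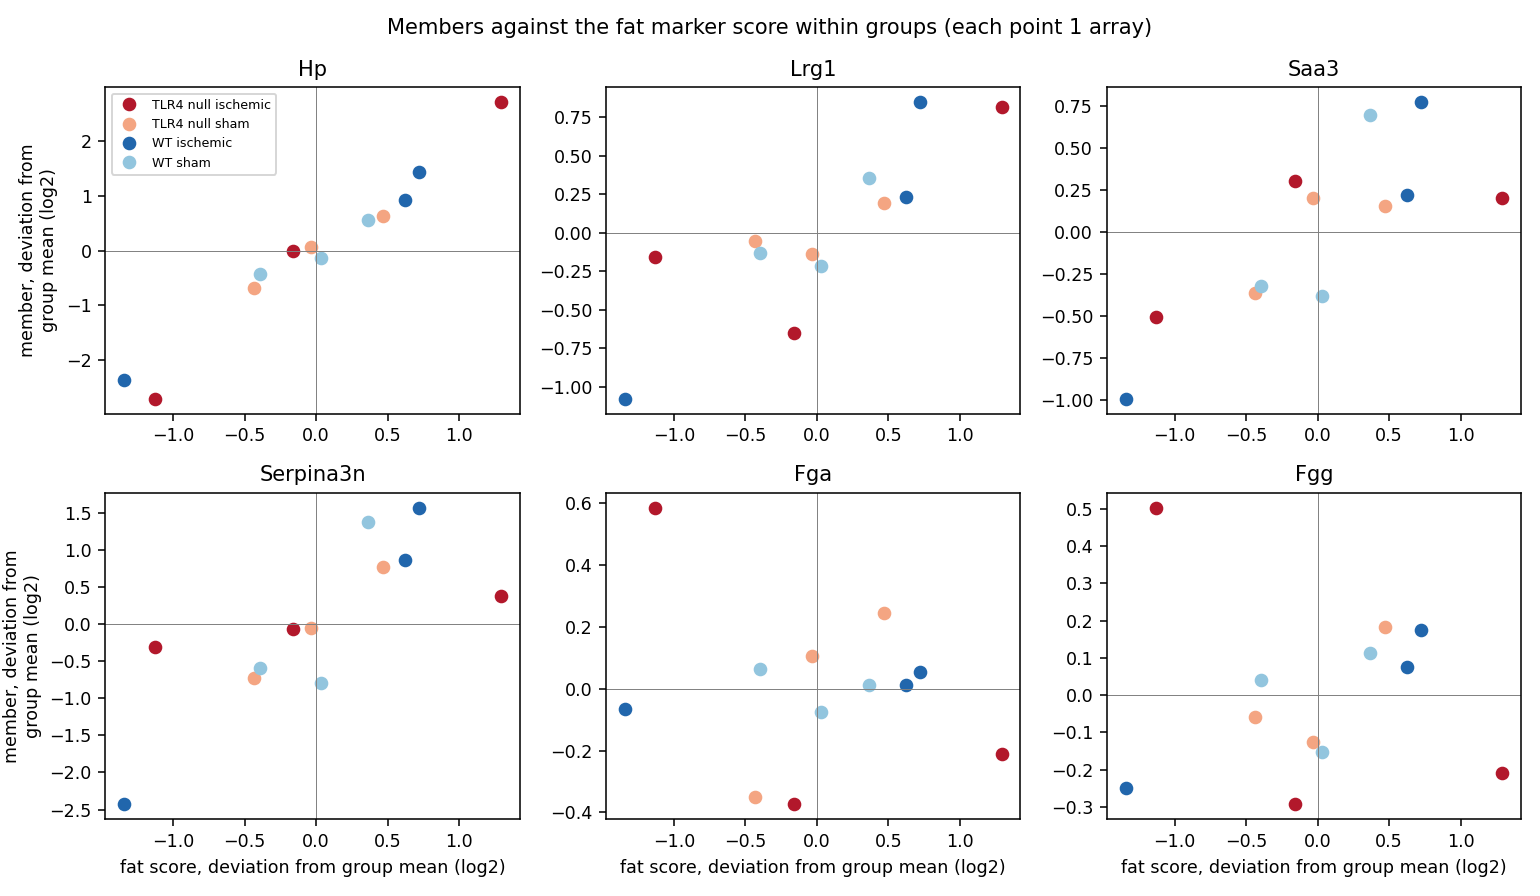
Deviation of Hp, Lrg1, Saa3, Serpina3n, Fga and Fgg from their group means (log2, vertical axis), 1 point for each of 12 arrays. The horizontal axis is the deviation of the mean level of 6 fat markers (log2). Hp lies close to a line (r = 0.98), Saa3, Lrg1 and Serpina3n follow more loosely, and the r of Fgg and Fga is -0.08 and -0.23. Without the 2 arrays farthest from the median fat level the r of Fgg and Fga is 0.70 and 0.48.

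The members also differed in their spread within groups. The standard deviation of the log2 deviations was 1.75 for Hp, 1.29 for Serpina3n, 0.64 for Lrg1 and 0.61 for Saa3. It was 0.30 for Fga, 0.27 for Fgg and 0.23 for Il1rn.

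In ischemic kidneys TLR4 null minus WT was negative for the 4 acute phase genes, and none of the differences was called with the deposited scaling. The difference was -2.52 ± 1.06 for Hp (limma, adjusted p = 0.367), -2.32 ± 0.81 for Serpina3n (adjusted p = 0.263), -1.66 ± 0.38 for Saa3 (adjusted p = 0.0590) and -0.82 ± 0.40 for Lrg1 (adjusted p = 0.458). All 6 fat markers had lower estimates in TLR4 null kidneys too, none of them called, and their mean level differed by -0.99 in ischemic kidneys (exact permutation test, two-sided p = 0.3) and -0.75 in sham kidneys (p = 0.2). With 3 arrays against 3 this test cannot go below 0.1. With median centring Saa3 was called in place of Fgg, at -1.67 for Saa3 (limma, adjusted p = 0.0362) and -0.92 for Fgg (adjusted p = 0.0603). Single arrays decided some calls in ischemic kidneys. Without the second WT ischemic array, Saa3 (-2.15; limma, adjusted p = 0.0162) and Serpina3n (-3.54; adjusted p = 0.0224) were called, and Saa3 was also called without the third TLR4 null ischemic array (-1.81; adjusted p = 0.0493) or the third WT sham array (-1.66; adjusted p = 0.0469).

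Markers of macrophages and of endothelium also separated the genotypes in level in both surgeries. The mean log2 level of the 9 measured of 13 listed monocyte and macrophage markers was 7.51 to 7.59 in TLR4 null ischemic kidneys, below 7.73 to 8.07 in WT ischemic kidneys. In sham kidneys it was 7.62 to 7.84 in TLR4 null mice, below 7.97 to 8.04 in WT mice. The level of the 6 endothelial markers was 8.31 to 8.50 in TLR4 null ischemic and 8.51 to 8.80 in WT ischemic kidneys, and 8.60 to 8.76 in TLR4 null sham and 8.85 to 8.999 in WT sham kidneys. In both lists no TLR4 null group overlapped the WT group of the same surgery. Endothelial levels of ischemic kidneys came as near as 8.505 and 8.507. Other marker levels did not separate the genotypes in both surgeries. In sham kidneys the level of the 9 hepatocyte markers was lower in TLR4 null mice without overlap. The proximal tubule level there was higher, at 12.36 to 12.52 in TLR4 null and 12.26 to 12.33 in WT mice. Both levels overlapped in ischemic kidneys. TLR4 null minus WT was -0.34 in ischemic and -0.28 in sham kidneys for the macrophage markers, and -0.24 in ischemic and -0.21 in sham kidneys for the endothelial markers (exact permutation test, two-sided p = 0.1 each, the smallest it can give). Deviations of the macrophage level correlated over the 12 arrays at r = 0.68 with Serpina3n, 0.67 with Lrg1, 0.65 with Saa3 and 0.50 with Hp. With Fga and with Fgg this r was 0.34, and with Il1rn 0.26. The part of these cells in the genotype differences was not tested.

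With the fat level as a covariate, the differences in ischemic kidneys came to -0.62 ± 0.24 for Hp (limma, adjusted p = 0.387), -1.21 ± 0.62 for Serpina3n, -1.13 ± 0.29 for Saa3 (adjusted p = 0.127) and -0.23 ± 0.27 for Lrg1. Those of the fibrinogen chains were -0.93 ± 0.22 for Fgg (limma, adjusted p = 0.103) and -0.75 ± 0.22 for Fga. The estimates of Hp, Serpina3n, Saa3 and Lrg1 were thus nearer to 0 with the covariate, and those of Fgg and Fga were not. This fit uses all 12 arrays, over which r with the fat level was -0.08 for Fgg and -0.23 for Fga. Without the 2 arrays farthest from the median fat level r was 0.70 for Fgg and 0.48 for Fga. The covariate fit was not repeated without those arrays. In sham kidneys the covariate brought Hp to 0.02, Lrg1 to 0.01, Saa3 to -0.11 and Serpina3n to 0.25, against -1.43, -0.44, -0.51 and -0.59 without it. Whether fat content accounts for the genotype differences was not tested.

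**Figure D4:**
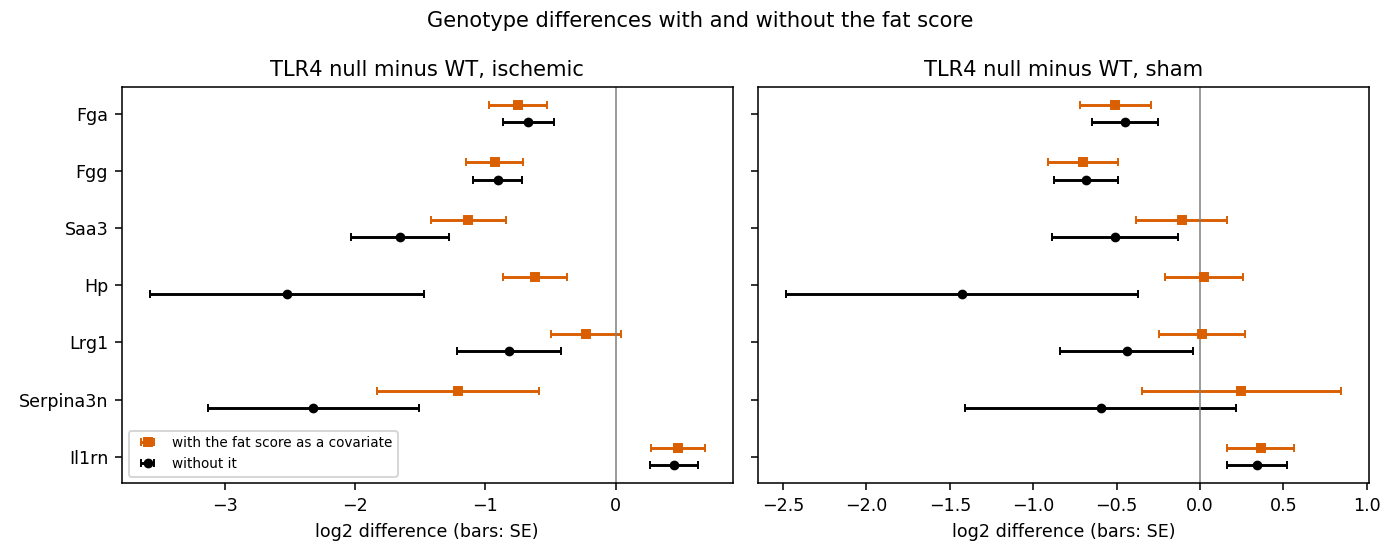
TLR4 null minus WT difference of log2(signal + 15) of each tested member in ischemic and sham kidneys, without and with the fat level of each array in the model; lines are standard errors. The differences of Hp, Serpina3n, Saa3 and Lrg1 lie nearer to 0 with the covariate, and those of Fga and Fgg do not. The fit with the covariate includes the 2 arrays farthest from the median fat level, without which r with fat was 0.48 for Fga and 0.70 for Fgg.

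Saa3 and Serpina3n depended on single arrays in WT mice. Without the second WT ischemic array, which had the least fat transcript of its group, the WT response was 1.23 for Saa3 (limma, adjusted p = 0.0176) and 2.52 for Serpina3n (adjusted p = 0.00863). With the fat covariate and all arrays it was 0.66 for Saa3 (limma, adjusted p = 0.0938) and 1.15 for Serpina3n (adjusted p = 0.182). The fall of Fga was -1.41 in TLR4 null mice and -1.17 in WT mice with the covariate and remained called in all 27 alternative settings and array omissions.

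Il1rn encodes a secreted protein that occupies the interleukin-1 receptor without signalling. Its 3 probe sets disagreed. The brightest gave 236, 194 and 178 in TLR4 null ischemic kidneys and 264, 156 and 209.7 in TLR4 null sham kidneys. It gave 141, 161 and 130.0 in WT ischemic kidneys and 151, 187 and 142 in WT sham kidneys. Ischemic and sham arrays overlapped, and the response was -0.03 ± 0.18 in TLR4 null mice (limma, adjusted p = 0.936) and -0.14 ± 0.18 in WT mice (adjusted p = 0.661).

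The dimmest gave 69.5, 73.9 and 64.4 in TLR4 null ischemic kidneys and 45.9, 23.6 and 39.4 in TLR4 null sham kidneys. It gave 79.0, 77.0 and 70.6 in WT ischemic kidneys and 41.6, 31.0 and 52.8 in WT sham kidneys. All 6 ischemic arrays exceeded all 6 sham arrays. The differences of 0.74 ± 0.25 in TLR4 null mice (limma over all probe sets, adjusted p = 0.0537) and 0.69 ± 0.25 in WT mice (adjusted p = 0.0751) were not called. Over all probe sets 16.7% were called in TLR4 null and 15.6% in WT mice, and ischemic arrays were higher without overlap for 14.0% in TLR4 null and 14.8% in WT mice. The share with all 6 ischemic arrays above all 6 sham arrays was not counted.

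The probe set of middle brightness read 55.4 to 146 in TLR4 null ischemic, 60.3 to 156 in TLR4 null sham, 102 to 157 in WT ischemic and 96.5 to 135 in WT sham kidneys. Its response was -0.30 in TLR4 null mice (limma over all probe sets, adjusted p = 0.600) and 0.24 ± 0.32 in WT mice (adjusted p = 0.691). Which transcripts of Il1rn each probe set detects was not determined here.

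**Figure D5:**
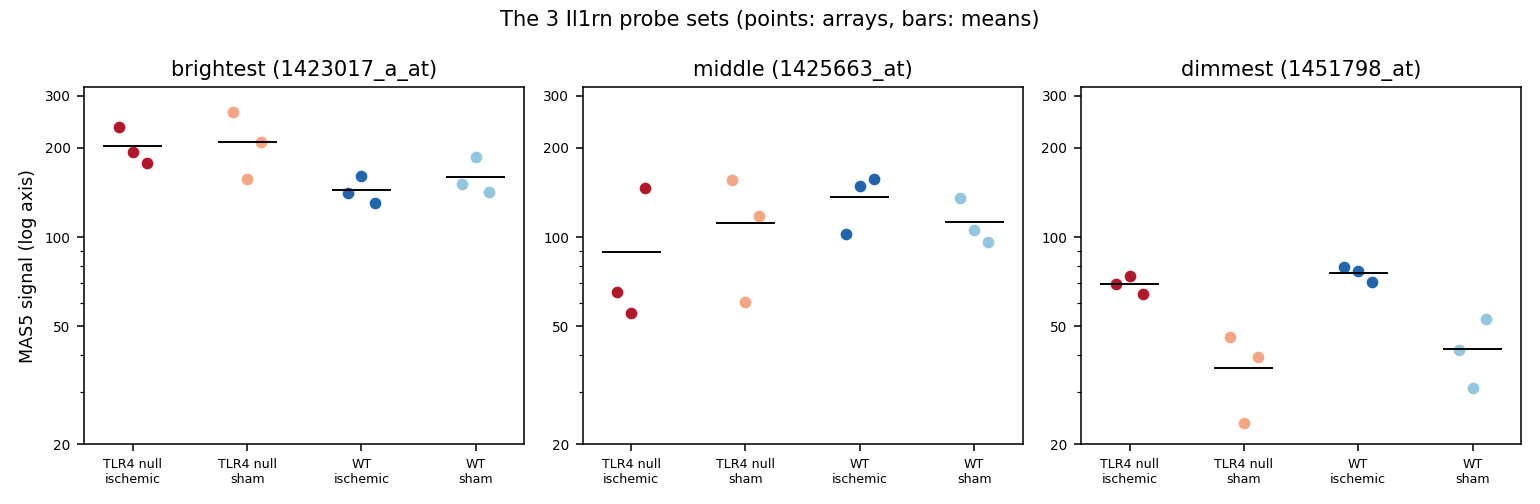
MAS5 signal of the 3 Il1rn probe sets on the 12 arrays by group, with 1 point for each array and a bar at the mean. Ischemic arrays stand above sham arrays in both genotypes for the dimmest probe set only, and TLR4 null ischemic arrays stand above WT ischemic arrays for the brightest.

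Il1rn, by its brightest probe set, was the one tested member with positive differences between TLR4 null and WT mice. In ischemic kidneys its arrays did not overlap, and the difference was 0.45 ± 0.18 (limma, adjusted p = 0.349). In sham kidneys they overlapped, at 0.34 ± 0.18 (limma, adjusted p = 0.619). The mean of the 3 probe sets gave -0.09 in ischemic kidneys, so the sign rests on the choice of probe set.

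Over the 7 tested members, most genotype differences were towards lower signals in TLR4 null mice. The members, like the gene lists below, were chosen with earlier results of these data known. The shares of all genes beside them are thus a description and do not test the members as a class. The median difference was -0.91 in ischemic kidneys, beside 0.01 over all genes, and -0.51 in sham kidneys, beside -0.01 over all genes. Lower without overlap were Fga, Fgg and Saa3 in ischemic kidneys, beside 7.63% of all genes, and Fga, Fgg, Hp and Lrg1 in sham kidneys, beside 8.63% of all genes. Higher without overlap was Il1rn in ischemic kidneys, beside 7.05% of all genes. An unadjusted p under 0.05, in either direction, was reached by 6 of 7 members in ischemic kidneys (11.4% of all genes). Among these 6 was Il1rn, which was higher in TLR4 null mice by its brightest probe set (limma, unadjusted p = 0.0263). In sham kidneys 2 of 7 reached it (9.35% of all genes), Fga and Fgg, both lower. Several members varied together within groups (Hp, Saa3, Lrg1 and Serpina3n, and Fga with Fgg), and these do not count as separate observations. The median response to ischemia was -0.41 in TLR4 null mice, beside -0.07 over all genes, and 0.01 in WT mice, beside -0.09 over all genes.

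Regulators of these genes in the liver were counted from a list. Of 37 listed genes of interleukin-6, STAT3 and C/EBP signalling, 32 were measured. In TLR4 null mice 15 were called higher, 4 lower and 13 not called, and in WT mice 16 higher, 5 lower and 11 not called, while 9.86% of all genes were called higher in TLR4 null and 9.17% in WT mice. Il6, the cytokine itself, was higher in ischemic kidneys by 2.97 in TLR4 null and 3.26 in WT mice, as differences of log2(signal + 15). Socs3, a feedback inhibitor of the pathway, was higher by 2.11 in TLR4 null and 2.53 in WT mice, and Stat3 by 1.00 in TLR4 null and 0.92 in WT mice. Hnf4a, a transcription factor of liver and proximal tubule, was among those called lower, with -0.58 in TLR4 null and -0.57 in WT mice. Among the nuclear factors, Nfkbiz rose by 1.99 in TLR4 null and 2.18 in WT mice, Cebpb by 1.30 in TLR4 null and 1.06 in WT mice, and Cebpd by 1.09 in TLR4 null and 1.25 in WT mice. Il6ra, the receptor chain that binds interleukin-6, was lower in TLR4 null mice, with a difference of -1.41 (limma, adjusted p = 0.018), and its difference of -0.54 in WT mice was not called. No interaction was called in this list. Between the genotypes, Stat3 alone was called, lower in TLR4 null sham kidneys (-0.47, limma, adjusted p = 0.035). Over all genes 0.223% were called lower in that comparison. The list median was 0.45 in TLR4 null mice, beside -0.07 over all genes, and 0.49 in WT mice, beside -0.09 over all genes.

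Other acute phase genes of the liver split in direction. Of 43 listed, 32 were measured. In TLR4 null mice 4 were called higher and 5 lower, and in WT mice 4 higher and 4 lower. Over all genes 9.86% were called higher and 11.7% lower in TLR4 null mice, and 9.17% and 10.5% in WT mice. These counts are thus near the background in both directions. The same 4 genes were called higher in both genotypes. Lcn2, which binds bacterial siderophores and is a marker of tubular injury, rose by 2.98 in TLR4 null and 2.56 in WT mice. The metallothioneins Mt2 and Mt1, which bind zinc, rose by 1.32 and 1.17 in TLR4 null mice and by 1.09 and 0.85 in WT mice. Cd14, a coreceptor of TLR4, rose by 0.79 in TLR4 null and 0.91 in WT mice. Called lower in both genotypes were Serpinf2, which encodes the plasmin inhibitor alpha-2-antiplasmin, with -0.71 in TLR4 null and -0.51 in WT mice, and Serpina1c, with -0.56 in TLR4 null and -0.84 in WT mice. Serpina1c has near-identical copies, among which probe sets cannot always tell. The list median was -0.12 in TLR4 null and -0.16 in WT mice, near those of all genes. Between the genotypes, Lcn2 was called lower in TLR4 null sham kidneys (-1.48, limma, adjusted p = 0.018). In TLR4 null ischemic kidneys Serping1 (-0.70, limma, adjusted p = 0.015) and Fn1 (-0.74, adjusted p = 0.034) were called lower. Over all genes 0.223% were called lower in sham and 0.517% in ischemic kidneys.

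Saa1 and Saa2, the liver forms of serum amyloid A, may share probe sequence. Saa1 read 24.3 to 37.3 in TLR4 null ischemic, 47.6 to 52.7 in TLR4 null sham, 36.8 to 390.1 in WT ischemic and 32.9 to 155 in WT sham kidneys. It was not called in any comparison, with a response of -0.48 in TLR4 null and 1.05 in WT mice. Over the 12 arrays Saa1 was among the 3 genes most like both Saa3 (r = 0.95) and Serpina3n (r = 0.96).

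For interleukin-1 itself, Il1b gave 0.12 in TLR4 null and 0.19 in WT mice, not called in either, and Il1a had no tested probe set. Il1r2, a decoy receptor that binds interleukin-1 without signalling, was higher by 0.99 in TLR4 null mice (limma, adjusted p = 0.021) and by 0.93 in WT mice (adjusted p = 0.030). Il1r1, the signalling receptor that Il1rn blocks, had differences of 0.71 in TLR4 null and 0.66 in WT mice that were not called. Of 27 listed genes of the interleukin-1 family 17 were measured, with 1 called higher and 1 lower in TLR4 null mice and 2 higher in WT mice. This stands beside 9.86% of all genes called higher and 11.7% lower in TLR4 null mice, and 9.17% higher in WT mice. Il33, an alarmin of this family, was higher after ischemia by 0.79 in WT mice, and TLR4 null minus WT was -0.91 in ischemic kidneys (limma, adjusted p = 0.0047).

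The neutrophil markers S100a8 and S100a9 were higher after ischemia by 1.07 and 1.09 in TLR4 null mice and by 1.34 and 1.52 in WT mice, as 2 of 9 measured markers of that cell. The other 7 were not called, and 5 of the 9 had negative estimates in each genotype. The list median was -0.08 in TLR4 null mice, beside -0.07 over all genes, and -0.22 in WT mice, beside -0.09. Mean neutrophil marker levels differed between ischemic and sham kidneys by 0.19 in TLR4 null mice (exact permutation test, two-sided p = 0.4) and 0.12 in WT mice (p = 0.5). Of 9 measured markers of monocytes and macrophages, cells that also make Il1rn, 1 was called higher and 2 lower in TLR4 null mice. In WT mice 1 was called higher and 1 lower. The shares of all genes called were 9.86% higher and 11.7% lower in TLR4 null mice, and 9.17% and 10.5% in WT mice. The part of neutrophils and macrophages in the members' values was not tested.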

How the data were processed

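Intensity values were deposited by the authors for 45101 probe sets on 12 arrays. Per the submitters' processing notes they come from MAS5. The sources used here do not give its version. The values are linear signals of 0.0377 to 31317.3, scaled to the same trimmed mean of 250.0 on each array (2% left out on each side), and this scaling was kept.

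Probe sets were named by the platform annotation: 34945 had 1 gene (34741 of them found in the Entrez table), 932 had several and 9160 had none. The members and gene lists were chosen with earlier results of these data known.

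Values were taken as log2(signal + 15). Probe sets over the 40th percentile of their array on at least 3 of 12 arrays were tested (30326 passed), and a gene was represented by its brightest probe set by mean log2 value (14322 genes). All genes were fitted with limma 3.58.1 in R 4.3.3 (lmFit, eBayes with a trend) in 1 model of 12 arrays with 4 group means. Tests were two-sided, p-values were Benjamini-Hochberg adjusted across all genes in each comparison, with a threshold of 0.05 for a call. Member probe sets were also tested in a fit over all probe sets. The fit was tested on simulated data. The fat level is the mean log2 value of 6 markers. Python 3.11.15 (numpy 2.4.6, pandas 2.3.3, scipy 1.17.1, matplotlib 3.10.9) was used otherwise. Named were all members, up to 5 genes of each list with the smallest p after ischemia, a short list of regulators, and the 3 genes most like each member. Genes outside this rule were chosen after their values were seen. Alternatives were other normalizations, pseudocounts, filters, probe set rules and fits, a replicate block, the fat covariate and leaving out each array.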

Additional observations from a re-analysis of the deposited data

How the results depend on the processing

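Fga after ischemia was called in all 27 alternatives in both genotypes, at -1.70 to -1.22 in TLR4 null mice (limma, highest adjusted p = 0.00221) and -1.22 to -1.11 in WT mice (highest adjusted p = 0.0057). The number of members called in WT ischemia was 2 with a replicate block, where Saa3 joined (0.73, limma, adjusted p = 0.0402). It was 1 to 3 without single arrays, 3 being without WT ischemic replicate 2, and also 3 without the second array of both ischemic groups, an alternative chosen after seeing the data. In TLR4 null ischemia it was 1 to 2 without single arrays and 2 without both. Between genotypes it was 0 throughout for the interaction, and 0 without each single array and 1 without both in sham kidneys (Fgg, -0.68, limma, adjusted p = 0.0421). In ischemic kidneys it was 0 with no filter, the mean of probe sets, all probe sets, no trend, only the groups compared, or the fat covariate, 0 to 2 without single arrays, and 3 without both (Fga, Fgg and Saa3). It was 0 without 8 of the 12 single arrays and 2 without the second array of either ischemic group. With median centring the count stayed at 1, but Saa3 (limma, adjusted p = 0.0362) replaced Fgg (adjusted p = 0.0603). With the block, Saa3 was called there (limma, adjusted p = 0.0102) and Fgg was not (adjusted p = 0.0716). Whether the replicate numbers pair the arrays was not settled. Same-numbered arrays of different groups had deviations correlated at -0.06 to 0.11, 1 of 18 pairs over 0.1, and other pairs at -0.13 to 0.14. Of the 12 arrays, 6 correlated best with their own number. These correlations are over all probe sets past the filter and cannot show whether a pairing acts on the members. In WT ischemia the standard error with the block was 0.23 for Saa3 (0.38 without it) and 0.21 for Fga (0.20 without it). The block gave 1290 genes higher and 1433 lower in WT ischemia, beside 1313 and 1501 without it.

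Signs turned for estimates that were not called. In WT ischemia Fgg gave 0.056 with median centring and 0.11 without both low-fat arrays, Lrg1 -0.011 with array weights and -0.073 with the fat covariate, and Il1rn 0.26 with the mean of probe sets. In TLR4 null ischemia Hp gave 0.10 with array weights and 0.67 without both low-fat arrays, and Il1rn 0.14 with the mean of probe sets and 0.061 with array weights. For Il1rn the mean of probe sets gave -0.13 in the interaction and -0.092 between genotypes in ischemic kidneys. In sham kidneys the fat covariate gave 0.023 for Hp, 0.013 for Lrg1 and 0.25 for Serpina3n. Without single arrays, WT ischemia ranged over -0.10 to 0.11 for Fgg, -0.31 to 1.60 for Hp and -0.41 to 0.55 for Lrg1. TLR4 null ischemia ranged over -2.04 to 0.67 for Hp and -0.21 to 0.14 for Il1rn, and the interaction over -2.45 to 0.26 for Hp, -0.92 to 0.044 for Lrg1 and -0.076 to 0.27 for Il1rn. Serpina3n in sham kidneys ranged over -0.99 to 0.093. The causes were not tested. Precision is limited by having 3 arrays a group and, for Fgb and Serpina3n, by signals near background.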

Other observations

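Genes whose log2 values over the 12 arrays were most like those of a member are given as a description. Hp was followed by Car3, a carbonic anhydrase abundant in adipose tissue and muscle (r = 0.99), Adipoq (0.98) and Mrap, an accessory protein of melanocortin receptors (0.97). Lrg1 was followed by Cidec, a lipid droplet protein (0.93), Akt1, a kinase (0.92), and Amy1, an amylase (0.90). Serpina3n was followed by Saa1 (0.96), Saa3 (0.94) and Plin4, a lipid droplet protein (0.91).

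Saa3 was followed by Iigp1, an interferon-inducible GTPase (0.97), Saa1 (0.95) and BC023105 (0.95). For Fga these were Zfp799 (0.95), Mme, the brush border protease neprilysin (0.95), and Hs6st2, a heparan sulfate sulfotransferase (0.95). For Fgg they were Camsap3, a microtubule minus-end protein (0.95), Ms4a6c (0.91) and Usp1, a deubiquitinase (0.89). Il1rn had the weakest neighbours, 1700008O03Rik (0.85), Kbtbd13 (0.83) and Csdc2 (0.83).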
